A study of Mus musculus with 35 samples.

Results

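The Toll-like receptor genes Tlr1 to Tlr9 and Tlr13 were examined in myeloid-derived suppressor cells (MDSC) and in whole tumor tissue from mice with pancreatic cancer. The members were taken by name, and all 10 were found among the 53379 gene rows of the count table. Female C57BL/6 mice carried orthotopic tumors of T110299, a single cell line derived from a pancreatic tumor of a mouse with p53fl/R172H and Ptf1a-Cre, in which Cre is driven by the promoter of a pancreatic transcription factor. All mice were tumor-bearing and immunocompetent, so no group without a tumor is part of these comparisons. Mice received 50 µg of the synthetic double-stranded RNA poly(I:C), complexed with the transfection polymer in vivo-jetPEI (poly(I:C)c), into a vein on days 18 and 20 after tumor induction. By the treatment protocol control mice received glucose, while the study's account of the sequencing describes them as left untreated, and they are called untreated here. PMN-MDSC (CD11b+Ly6CloLy6G+) and M-MDSC (CD11b+Ly6ChiLy6G-) were sorted from spleen and tumor, and total RNA was depleted of ribosomal RNA and sequenced. The 8 MDSC groups held 4 libraries each, except treated spleen PMN-MDSC with 3 and treated tumor M-MDSC with 3, and 4 libraries came from bulk tumors of untreated mice.

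Toll-like receptors recognise molecules of microbes and of damaged cells and signal through the adaptors MyD88 and TRIF to NF-kB and interferon regulatory factors. TLR1, TLR2, TLR4, TLR5 and TLR6 act at the cell surface and sense lipopeptides, lipopolysaccharide and flagellin. TLR3, TLR7, TLR8, TLR9 and TLR13 act in endosomes and sense nucleic acids, with TLR3 binding double-stranded RNA such as poly(I:C), and myeloid cells use members of both groups. Poly(I:C) delivered with a transfection polymer into the cytosol also reaches the helicase sensor MDA5.

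The 30 MDSC libraries used held 793070 to 4357105 counts and the 4 bulk tumor libraries 3771590 to 8886115 counts, and 1 treated tumor M-MDSC library with 10 counts was left out. Levels are given as CPM, counts relative to the library size, after TMM scaling across all 34 libraries, and a count of 3 in a library, taken as the limit that a count of 0 allows, corresponded to at most 3.83 CPM. The sample titles carry numbers that recur across the groups, but the column names of the count table hold a running number instead. Libraries were therefore not paired, the tests between organs and between cell types treated libraries that may come from the same mice as independent, and p-values measure the spread between libraries of a group. The numbers given to libraries below only name them.

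The sorted fractions were compared with marker lists of the cell types that the gates could hold. The 10 neutrophil markers summed to 20628 to 40816 CPM in untreated spleen PMN-MDSC, 49098 to 73563 CPM in treated spleen PMN-MDSC, but only 1428 to 4529.6 CPM in untreated and 3765 to 12677 CPM in treated tumor PMN-MDSC. Ly6g, the antigen of the PMN-MDSC gate, had a mean of 68.0 ± 26.6 CPM (SD, n = 4) in untreated spleen PMN-MDSC and of 2.90 ± 4.11 CPM (SD, n = 4) in untreated tumor PMN-MDSC. The 8 macrophage markers, which include Apoe and the C1q genes, summed to 10377 to 13332 CPM in untreated tumor PMN-MDSC and to 3428 to 8041 CPM in untreated tumor M-MDSC. The neutrophil markers summed to 229 to 670 CPM in untreated tumor M-MDSC, below all untreated tumor PMN-MDSC libraries, and 5 of 9 tested were higher in PMN-MDSC (edgeR, adjusted p under 0.05). Within the tumor the order of these markers thus followed the gates, but in tumor PMN-MDSC they were low beside spleen PMN-MDSC and macrophage markers were high, and the name stands below only for the sorted gate. In spleen PMN-MDSC, all 8 macrophage markers fell after treatment (summed 105 to 274 CPM against 629 to 1878 CPM), and the 5 erythroid markers summed to 0.505 to 9.57 CPM against 69.6 to 187 CPM. The 6 B cell markers summed to 13.0 to 56.2 CPM in treated and 49.9 to 98.0 CPM in untreated spleen PMN-MDSC, and these ranges overlapped. In these bulk samples, fewer cells of a type and less RNA per cell cannot be told apart. The interferon-induced genes used to check the treatment labels (10 genes, among them Ifit1, Mx1 and Isg15) had a higher sum in every treated library than in every untreated library of the same cell type and organ.

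**Figure D1:**
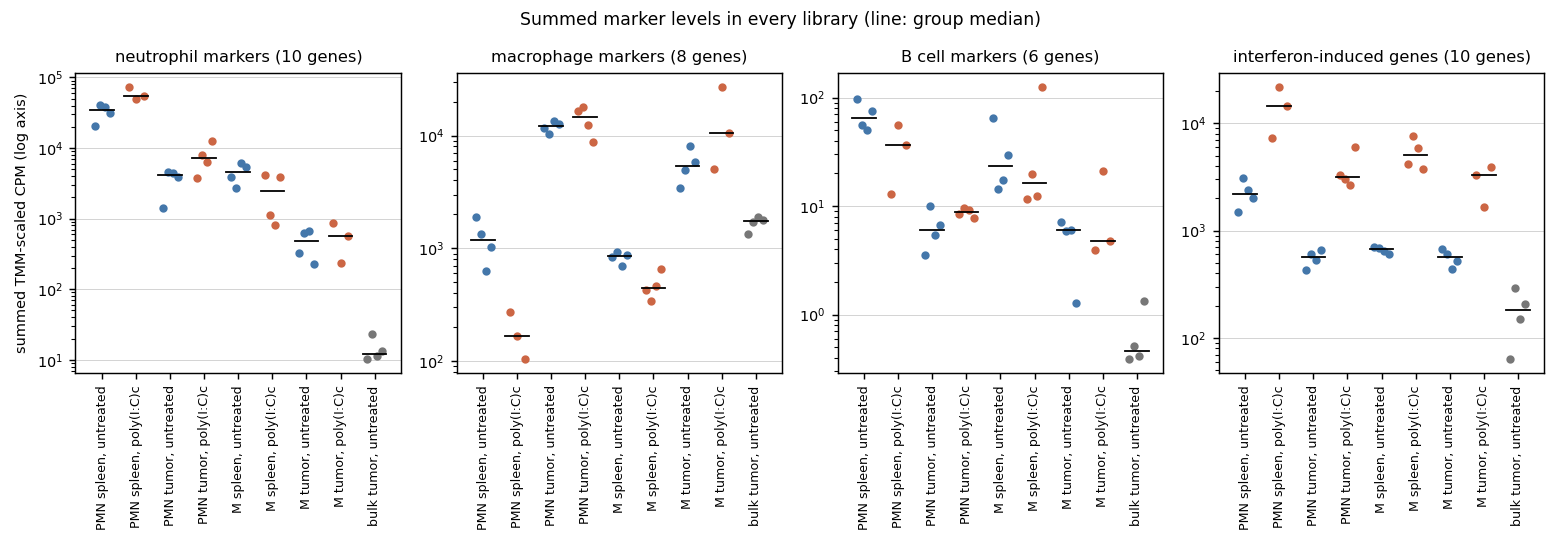
Summed TMM-scaled CPM on log axes (vertical) of the neutrophil, macrophage and B cell marker lists and of the interferon-induced genes in each library of the 9 groups (horizontal). Each point is 1 library (blue untreated, red poly(I:C)c, grey bulk tumor) and each black line is the group median. Neutrophil markers of untreated tumor PMN-MDSC lie at 1428 to 4529.6 CPM, all below the 20628 to 40816 CPM of untreated spleen PMN-MDSC.

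The genes lie on 7 chromosomes of the mouse build GRCm38. Tlr1 (chr5:64924679-64933563) and Tlr6 (chr5:64952031-64960097) are neighbours on the minus strand, and Tlr7 (chrX:167304929-167330558) and Tlr8 (chrX:167242696-167264329) are neighbours on the minus strand of the X chromosome, which also carries Tlr13 (chrX:106143204-106160493, plus strand). Tlr2 (chr3:83836272-83841767, minus), Tlr3 (chr8:45395665-45411080, minus), Tlr4 (chr4:66827584-66930284, plus), Tlr5 (chr1:182954788-182976044, plus) and Tlr9 (chr9:106222598-106226883, plus) stand alone. No gene overlapped a member on its own strand, and Tlr3 alone overlapped a gene on the other strand (Gm45542), which strand-specific counting keeps apart. The transcripts of Tlr1 and Tlr6, both partners of TLR2 in lipopeptide recognition, were identical over a run of 229 bases inside the coding sequence, at chr5:64925537-64925765 in Tlr1 and chr5:64953828-64954056 in Tlr6. Tlr1 shared 10.3% of its windows of 75 bases with Tlr6, and Tlr6 shared 9.25% of its windows with Tlr1, so the counts of both are uncertain by the reads that the counting split or dropped. No other pair of members shared a run over 18 bases. The run is printed because reads inside it fit both genes equally.
Tlr1 and Tlr6 shared run: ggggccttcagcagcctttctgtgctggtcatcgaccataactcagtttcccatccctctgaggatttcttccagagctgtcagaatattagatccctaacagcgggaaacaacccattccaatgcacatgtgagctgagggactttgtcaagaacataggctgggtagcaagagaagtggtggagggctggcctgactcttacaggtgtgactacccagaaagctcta

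The promoter table of RefSeq (GRCm38.p6) held 8 of the 10 members, without Tlr4 and Tlr7, in 10 windows of the 250 bases before the transcription start. The interferon regulatory factor core (AANNGAAA, either strand) was found in 4 of the 10 windows, 1 each of Tlr1, Tlr2, Tlr3 and Tlr6, and 21.3% of all 32851 promoter windows of the same length held it. The core of the interferon-stimulated response element (either strand) was found in 1 of the 10 windows, of Tlr6, against 2.98% of all windows, and its 2 matches overlapped each other and the matches of the shorter core. The PU.1 site (GAGGAAGT, either strand) was found in 1 of the 10 windows, of Tlr1, against 2.44% of all windows. Tlr1 and Tlr6 have 2 windows each, and the other Tlr6 window (chr5:64960049-64960298, minus strand), at the 5′ end of the annotated gene, held neither the interferon regulatory factor core nor the response element. The matching windows of Tlr1 (chr5:64932700-64932949) and Tlr3 (chr8:45410381-45410630) lie inside their annotated genes, and that of Tlr2 (chr3:83841609-83841858) overlaps the end of its gene. Of the 250 bases of the Tlr3 window, 178 lie in annotated exons. The following 4 sequences are printed with matches to the interferon regulatory factor core in capitals: the Tlr6 window with matches, which lies inside the annotated gene (chr5:64959167-64959416, minus strand), the Tlr9 window (chr9:106222348-106222597, plus strand), the part of the Tlr13 window before the first annotated exon (chrX:106143025-106143203, plus strand) and 30 bases around the match in Tlr3 (chr8:45410421-45410450, minus strand). They stand for a member with 4 matches in 1 of its windows and no treatment difference called by edgeR with the filter on low counts (Tlr6). The others are members without a match that fell in spleen PMN-MDSC (Tlr9) or rose in tumor PMN-MDSC (Tlr13), and a member with 1 match that rose in tumor M-MDSC (Tlr3). In the other populations the log2 fold change of Tlr9 was positive and was not called by this test. A match describes these letters and not a bound site.
Tlr6: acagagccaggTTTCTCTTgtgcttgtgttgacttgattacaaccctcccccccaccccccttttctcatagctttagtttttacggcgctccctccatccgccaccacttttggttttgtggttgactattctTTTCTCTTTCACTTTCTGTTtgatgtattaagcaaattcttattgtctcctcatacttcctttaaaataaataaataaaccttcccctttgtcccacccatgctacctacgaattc
Tlr9: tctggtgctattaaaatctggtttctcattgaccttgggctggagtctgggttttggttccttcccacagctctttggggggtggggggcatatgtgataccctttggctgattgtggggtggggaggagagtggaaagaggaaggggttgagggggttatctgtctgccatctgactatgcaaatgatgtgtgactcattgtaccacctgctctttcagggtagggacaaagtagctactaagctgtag
Tlr13: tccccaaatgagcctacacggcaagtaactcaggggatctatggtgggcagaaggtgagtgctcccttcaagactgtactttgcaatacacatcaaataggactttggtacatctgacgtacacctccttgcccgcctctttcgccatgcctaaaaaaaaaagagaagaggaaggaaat
Tlr3: aagtgaatggcTTTCACTTtgtttagacac

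The make-up of the receptor family, compared per length as TMM-scaled FPKM, differed between spleen and tumor. Tlr13, the sensor of bacterial ribosomal RNA, had the highest level in spleen PMN-MDSC, with 97.8 ± 29.7 FPKM (SD, n = 4) untreated and 209 ± 93.1 FPKM (SD, n = 3) treated, and its range lay above that of Tlr2, the next member, in both. Tlr13 held 47.4% ± 6.6 (SD, n = 4) of the summed receptor FPKM in untreated and 55.6% ± 3.16 (SD, n = 3) in treated spleen PMN-MDSC. Tlr2, the lipopeptide receptor, had the highest level in untreated tumor PMN-MDSC, with 73.6 ± 17.1 FPKM (SD, n = 4), and in untreated tumor M-MDSC, with 137 ± 30.4 FPKM (SD, n = 4), above the range of Tlr13 in both. Tlr2 held 49.8% ± 4.79 (SD, n = 4) of the summed receptor FPKM in untreated tumor M-MDSC and 10.6% ± 0.751 (SD, n = 4) in untreated spleen M-MDSC. In untreated spleen M-MDSC, 3 endosomal sensors led, Tlr13 (42.3 ± 7.28 FPKM), Tlr7 (35.5 ± 5.05 FPKM) and Tlr9 (29.6 ± 3.25 FPKM; SD, n = 4 each), and the ranges of neighbours in this order overlapped. Treated tumor PMN-MDSC had Tlr13 (89.0 ± 41.9 FPKM) and Tlr2 (84.3 ± 12.1 FPKM; SD, n = 4 each) at overlapping levels. Tlr3 was the lowest member in 5 of the 8 MDSC groups, at 0.232 to 1.75 FPKM, and Tlr5 the lowest in the other 3, at 1.75 to 2.20 FPKM. In bulk tumor, Tlr4 (4.56 ± 1.25 FPKM) and Tlr3 (3.06 ± 1.38 FPKM; SD, n = 4 each) led with overlapping ranges. The summed receptor FPKM was 13.7 ± 3.40 (SD, n = 4) in bulk tumor, and its group mean lay between 165 and 371 in the MDSC groups.

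**Figure D2:**
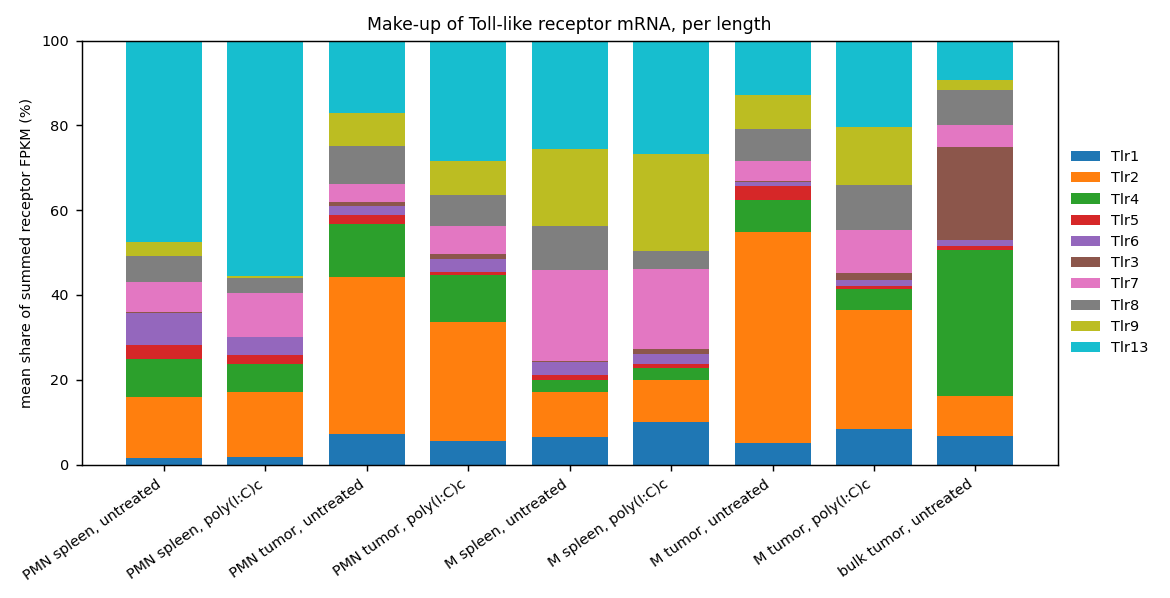
Mean share of the summed receptor FPKM (vertical, percent) of each of the 10 members, stacked, in the 9 groups (horizontal). Tlr13 takes 47.4% in untreated spleen PMN-MDSC, Tlr2 takes 49.8% in untreated tumor M-MDSC, and Tlr4 and Tlr3 take 34.5% and 22% of bulk tumor.

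The first question was which receptors changed after poly(I:C)c. At an adjusted p under 0.05 (edgeR quasi-likelihood test, two-sided, Benjamini-Hochberg adjustment over all genes tested), 1 of the 9 members tested differed in spleen PMN-MDSC, where 11.6% of all genes tested did. In tumor PMN-MDSC 2 of 10 tested members differed against 3.36% of all genes, in spleen M-MDSC 2 of 9 against 19.6%, and in tumor M-MDSC 3 of 10 against 2.88%. Tlr3 was the member left untested in both spleen comparisons because its mean was under 25 counts. The changes were spread over different receptors: Tlr9 fell in spleen PMN-MDSC, Tlr7 and Tlr13 rose in tumor PMN-MDSC, Tlr1 rose and Tlr8 fell in spleen M-MDSC, and Tlr3 and Tlr7 rose while Tlr5 fell in tumor M-MDSC. The median log2 fold change of the tested members was 0.43 in spleen PMN-MDSC, 0.48 in tumor PMN-MDSC, 0.21 in spleen M-MDSC and 0.76 in tumor M-MDSC, beside medians of all genes of 0.01, 0.01, -0.01 and -0.00054.

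**Figure D3:**
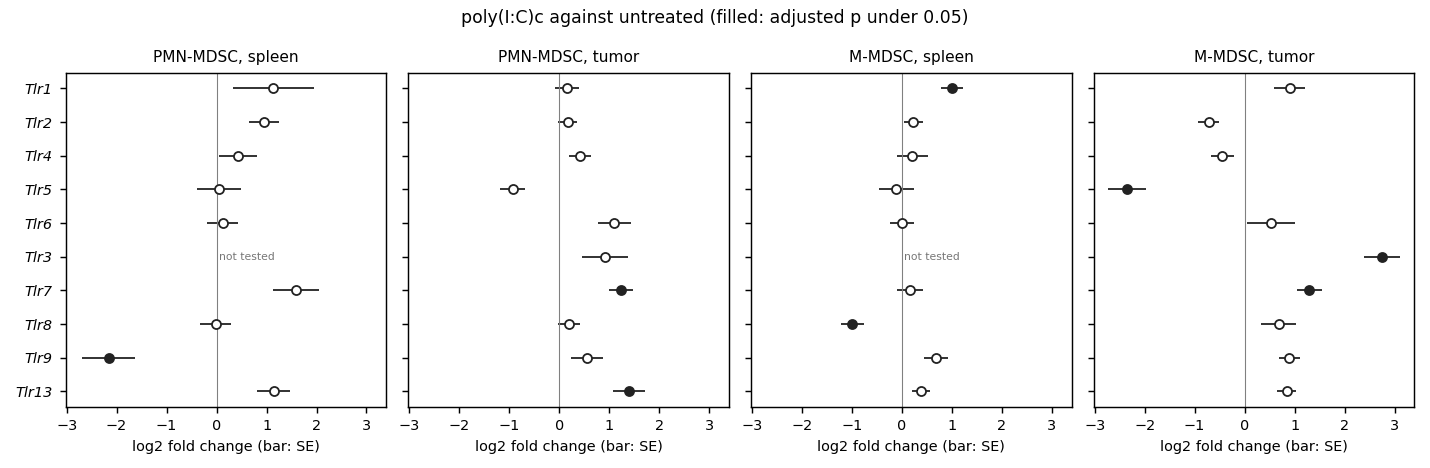
Log2 fold change of poly(I:C)c against untreated (horizontal) for each of the 10 members (vertical) in the 4 MDSC populations, with bars for the standard error. Filled circles had an adjusted p under 0.05, which holds for Tlr9 in spleen PMN-MDSC, Tlr7 and Tlr13 in tumor PMN-MDSC, Tlr1 and Tlr8 in spleen M-MDSC, and Tlr5, Tlr3 and Tlr7 in tumor M-MDSC.

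Tlr3, the endosomal sensor of double-stranded RNA, rose in tumor M-MDSC. The untreated libraries held 2.55, 3.28, 3.81 and 5.24 CPM and the treated libraries 18.2, 28.6 and 34.9 CPM, so the groups did not overlap. The log2 fold change was 2.75 ± 0.35 (SE, edgeR adjusted p = 0.00848), and the adjusted p stayed between 0.00546 and 0.0425 when single libraries were left out. The 6 fibroblast and endothelial markers summed to 21.7 to 57.1 CPM in untreated and 72.0 to 143 CPM in treated tumor M-MDSC without overlap, with 0 of 2 tested passing the test. The 5 tumor epithelial markers summed to 98.0 to 319.6 CPM untreated and 68.4 to 96.6 CPM treated, also without overlap, with 1 of 4 tested lower. The macrophage sums of the 3 treated libraries, 5069, 10625 and 27007 CPM, had the same order as their Tlr3 levels, and the part of these cells in the rise of Tlr3 was not tested. In spleen M-MDSC, Tlr3 held 1.32, 2.19, 2.37 and 2.75 CPM untreated (5 to 7 counts) and 8.24, 8.73, 11 and 16.1 CPM treated (26 to 53 counts), again without overlap. It was under the filter on low counts there, and without that filter its log2 fold change was 2.37 (edgeR adjusted p = 3.85e-06). Adjusted p without the filter can differ greatly from that with it, as given for Tlr7 below, so this value is not comparable with the filtered ones. In tumor PMN-MDSC, the untreated libraries held 2.87, 5.86, 11.1 and 16.6 CPM and the treated 9.20, 16.6, 20.6 and 21.1 CPM, which overlapped, with a log2 fold change of 0.91 ± 0.46 (SE, edgeR adjusted p = 0.335). Spleen PMN-MDSC held 0 to 10 counts of Tlr3 per library, and the 1 library with a count of 0 allows up to 2.61 CPM.

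Tlr7, a sensor of single-stranded RNA, rose in both tumor MDSC populations. In tumor PMN-MDSC it held 24.9, 29.3, 37.9 and 44.8 CPM untreated and 58.4, 75.4, 82.2 and 114 CPM treated. In tumor M-MDSC it held 46.3, 49.3, 54.9 and 59.1 CPM untreated and 83.8, 136 and 167 CPM treated. Every treated library lay above every untreated library in both, with log2 fold changes of 1.24 ± 0.24 (SE, edgeR adjusted p = 0.0198) and 1.30 ± 0.25 (SE, edgeR adjusted p = 0.0305). In spleen PMN-MDSC the untreated libraries held 38.1, 49.3, 68.6 and 72.0 CPM and the treated 53.0, 202 and 252 CPM, and 1 treated library lay within the untreated range. The log2 fold change there was 1.60 ± 0.46 (SE, edgeR adjusted p = 0.0578), and without that library (number 1) it was 2.01 with an adjusted p of 0.00702. Library 1 also had the lowest interferon-induced gene sum of the treated spleen PMN-MDSC, 7204 CPM against 14369 and 21781 CPM in the other two, and its part was not tested. With DESeq2 the adjusted p of Tlr7 was 0.0102, without the filter on low counts 6.98e-07, and with 1 fit over the 8 MDSC groups it was 0.0017. In spleen M-MDSC, Tlr7 held 118 to 163 CPM untreated and 114 to 272 CPM treated, and the difference did not pass the test (log2 fold change 0.16, edgeR adjusted p = 0.703).

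The Tlr7 calls depended on which libraries entered the fit. In tumor PMN-MDSC the adjusted p was 0.0746, 0.0644 and 0.0708 without untreated libraries 1, 3 and 4. In tumor M-MDSC it was 0.102, 0.0713, 0.0871 and 0.0679 without untreated libraries 1, 2, 3 and 4 and 0.12 without treated library 3, while the log2 fold change stayed between 1.07 and 1.53.

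Tlr13, which senses bacterial ribosomal RNA and is found in mice but not in humans, rose in tumor PMN-MDSC. It held 92.7, 135, 155 and 186 CPM in the untreated and 244, 266, 384 and 637 CPM in the treated libraries, without overlap. The log2 fold change was 1.4 ± 0.31 (SE, edgeR adjusted p = 0.037). The adjusted p was 0.114, 0.094, 0.111 and 0.0644 without untreated libraries 1, 2, 3 and 4 and 0.0696 without treated library 3, with the log2 fold change between 1.05 and 1.55. The neutrophil markers of the same tumor PMN-MDSC libraries summed to 1428 to 4529.6 CPM untreated and 3765 to 12677 CPM treated, the library with the most Tlr13 also had the highest of these sums, 0 of the 10 neutrophil markers passed the test, and their part in the result was not tested. Spleen PMN-MDSC held 308, 346, 432 and 597 CPM untreated and 444, 1044 and 1205 CPM treated, with 1 treated library inside the untreated range. The log2 fold change in spleen PMN-MDSC was 1.14 ± 0.33 (SE, edgeR adjusted p = 0.0601), and the adjusted p was 0.0127 without treated library 1, 0.0469 without untreated library 2, 0.0103 with DESeq2, 0.000344 without the filter on low counts and 0.00588 with 1 fit over the 8 MDSC groups. In tumor M-MDSC the ranges of 123 to 161 CPM untreated and 229.8 to 311 CPM treated did not overlap, with a log2 fold change of 0.84 ± 0.19 (SE, edgeR adjusted p = 0.0514). The adjusted p of Tlr13 in tumor M-MDSC was 0.00157 with DESeq2, 0.0433 under upper-quartile scaling, 0.0155 without the filter on low counts, 0.0313 with library totals, and 0.0384 and 0.0441 without treated libraries 1 and 2. In spleen M-MDSC, the log2 fold change was 0.38 ± 0.18 (SE, edgeR adjusted p = 0.179).

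Tlr9, the sensor of unmethylated CpG DNA, fell in spleen PMN-MDSC. The untreated libraries held 12.2, 16.9, 18.8 and 40.1 CPM and the treated libraries 4.14, 4.35 and 6.06 CPM, from 5 to 12 counts. No library of one group reached the range of the other, and the log2 fold change was -2.16 ± 0.54 (SE, edgeR adjusted p = 0.0349). The adjusted p was 0.0662, 0.0979 and 0.09 without treated libraries 1, 2 and 3 and 0.0505 and 0.072 without untreated libraries 3 and 4, and without untreated library 1, which held the highest level, Tlr9 was under the filter on low counts. All 8 macrophage markers, 5 of 8 monocyte markers and both tested erythroid markers fell in the same comparison, while 1 monocyte marker and 5 of 10 neutrophil markers rose. The 7 conventional dendritic cell markers summed to 638 to 796 CPM untreated and 483 to 623 CPM treated without overlap, with 1 of 2 tested lower. The sums of the 8 monocyte markers (706 to 1429 CPM untreated and 1032 to 1959 CPM treated) and of the 6 B cell markers overlapped between treated and untreated libraries. The untreated library with the most Tlr9 also had the highest macrophage, erythroid and B cell sums (1878, 187 and 98.0 CPM), and their part in the fall of Tlr9 was not tested. The 6 markers of plasmacytoid dendritic cells, which express Tlr7 and Tlr9, summed to 9.34 to 27.7 CPM untreated and 12.1 to 21.3 CPM treated, mostly from Tcf4, and Siglech, a defining marker, was at 0 in all 7 libraries.

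In the other populations, Tlr9 did not pass the edgeR test with the filter on low counts, and its calls differed between settings in M-MDSC. Tumor M-MDSC held 51.1, 80.0, 81.7 and 91.2 CPM untreated and 129, 137 and 165 CPM treated, without overlap, and the log2 fold change was 0.90 ± 0.21 (SE, edgeR adjusted p = 0.057). The adjusted p there was 0.00474 with DESeq2, 0.0104 without the filter on low counts and 0.047 with library totals. Spleen M-MDSC held 87.2, 103, 108 and 113 CPM untreated and 96.5, 137, 206 and 236 CPM treated, with a log2 fold change of 0.68 ± 0.24 (SE, edgeR adjusted p = 0.0763), and the adjusted p was 0.04 with DESeq2 and 0.00799 without treated library 4. The treated spleen M-MDSC library with the highest B cell and plasmacytoid dendritic cell marker sums (126 and 118 CPM) had the lowest Tlr9 level of its group. The part of these cells in the Tlr9 levels was not tested. Tumor PMN-MDSC held 42.6 to 68.7 CPM untreated and 43.7 to 119 CPM treated, and the log2 fold change was 0.56 ± 0.31 (SE, edgeR adjusted p = 0.386).

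Tlr8, an endosomal RNA sensor encoded next to Tlr7, fell in spleen M-MDSC from 55.2, 57.6, 60.3 and 74.2 CPM to 19.4, 30.9, 35.8 and 40.5 CPM. The groups did not overlap, the log2 fold change was -0.99 ± 0.22 (SE, edgeR adjusted p = 0.0126), and the adjusted p was 0.00502 to 0.0349 when single libraries were left out. In the same comparison the macrophage markers summed to 704 to 927 CPM untreated and 343 to 658 CPM treated, with 3 of 8 higher and 2 lower by the test, and the erythroid markers to 23.6 to 47.6 CPM and 0.606 to 2.69 CPM. Of the 8 monocyte markers, 3 rose and 3 fell, and the part of these cells in the changes of Tlr8 and Tlr1 in spleen M-MDSC was not tested. In tumor M-MDSC, the untreated libraries held 49.8, 80.0, 81.5 and 84.0 CPM and the treated 60.1, 109 and 189.7 CPM, which overlapped (log2 fold change 0.68, edgeR adjusted p = 0.338). The treated tumor M-MDSC library with 189.7 CPM also had the highest macrophage marker sum, 27007 CPM against 5069 and 10625 CPM in the other two. In PMN-MDSC the differences were small, with log2 fold changes of -0.01 in spleen and 0.20 in tumor (edgeR adjusted p = 0.986 and 0.689).

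Among the surface receptors, Tlr5, the flagellin receptor, fell in tumor M-MDSC. Its untreated libraries held 35.4, 36.1, 44.7 and 50.1 CPM and its treated libraries 4.81, 6.47 and 13.8 CPM, so the groups were far apart. The log2 fold change was -2.35 ± 0.38 (SE, edgeR adjusted p = 0.0174), and the adjusted p was 0.0633, 0.0607 and 0.0526 without untreated libraries 1, 3 and 4 and 0.0914 without treated library 3. In the same comparison the fibroblast and endothelial sums rose and the tumor epithelial sums fell without overlap, as given for Tlr3. Their part in the changes of Tlr5 and Tlr7 in tumor M-MDSC was not tested. In tumor PMN-MDSC, Tlr5 held 14.9, 19.9, 21.5 and 23.5 CPM untreated and 8.30, 9.59, 11.5 and 12.7 CPM treated. These ranges did not overlap either, but the log2 fold change of -0.93 ± 0.24 (SE) had an edgeR adjusted p of 0.0677, and of 0.0198 with DESeq2. In the spleen, the ranges overlapped in both populations (7.07 to 14 against 5.68 to 13.6 CPM in M-MDSC, 26.2 to 39.5 against 10.6 to 51.5 CPM in PMN-MDSC, untreated first).

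Tlr1 and Tlr6, which pair with TLR2 to bind lipopeptides, gave different results, read with the shared run printed above in mind. Tlr1 rose in spleen M-MDSC from 26.7, 33.9, 37.6 and 42 CPM to 51.1, 55.7, 82.9 and 98.5 CPM, without overlap. The log2 fold change was 1.0 ± 0.22 (SE, edgeR adjusted p = 0.0113), and with 1 fit over the 8 MDSC groups the adjusted p was 0.138. In spleen PMN-MDSC, 1 treated library held 50.5 CPM of Tlr1 while the other two held 5.92 and 8.70 CPM, close to the untreated 3.22 to 19.9 CPM. Tlr1 levels overlapped in both tumor populations, with log2 fold changes of 0.15 in PMN-MDSC and 0.90 in M-MDSC (edgeR adjusted p = 0.775 and 0.152), and without the filter on low counts the adjusted p in tumor M-MDSC was 0.0174. Tlr6 held 11.7, 14.8, 16.3 and 21 CPM in untreated and 21.4, 23, 40.0 and 57.6 CPM in treated tumor PMN-MDSC, where the log2 fold change of 1.10 ± 0.33 (SE) had an edgeR adjusted p of 0.108. These ranges did not overlap, and the adjusted p was 0.0359 with DESeq2 and 0.00172 without the filter on low counts. In the other 3 populations, the log2 fold change of Tlr6 was between -0.01 and 0.53, and its ranges overlapped.

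Tlr2, the shared partner of TLR1 and TLR6, and Tlr4, the lipopolysaccharide receptor, did not pass the edgeR test with the filter on low counts in any of the 4 treatment comparisons. Tlr2 held 318, 349.8, 489 and 493 CPM in untreated and 249, 253 and 254 CPM in treated tumor M-MDSC. These ranges did not overlap, and the log2 fold change of -0.72 ± 0.22 (SE) had an edgeR adjusted p of 0.104, and of 0.0189 with DESeq2. In spleen PMN-MDSC, Tlr2 held 60.8, 74.4, 82.7 and 139 CPM untreated and 109, 168 and 218 CPM treated, which overlapped, with a log2 fold change of 0.94 ± 0.30 (SE, edgeR adjusted p = 0.076), and the adjusted p was 0.041 without treated library 1, 0.0283 without untreated library 2, 0.0274 with DESeq2, 0.00801 without the filter on low counts and 0.0084 with 1 fit over the 8 MDSC groups. The log2 fold changes of Tlr4 were 0.43 and 0.41 in spleen and tumor PMN-MDSC, 0.21 in spleen M-MDSC and -0.44 in tumor M-MDSC, and its ranges overlapped in all 4.

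**Figure D4:**
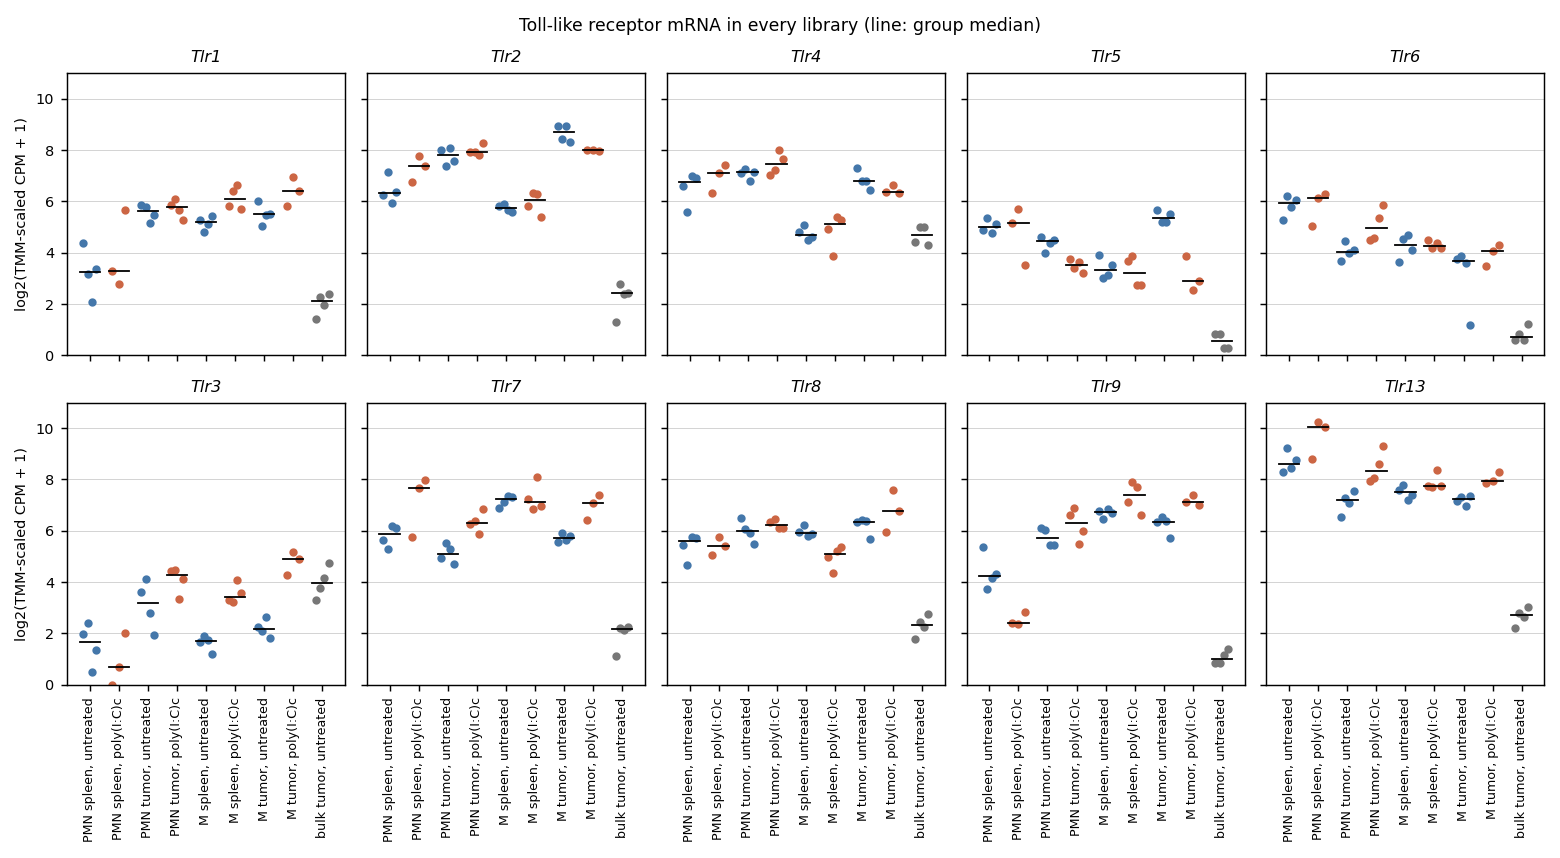
Log2(TMM-scaled CPM + 1) of each member (vertical) in every library of the 9 groups (horizontal), with surface receptors on the upper row and endosomal sensors on the lower row. Points are libraries (blue untreated, red poly(I:C)c, grey bulk tumor) and lines are group medians, and the treated Tlr9 libraries of spleen PMN-MDSC, at 4.14 to 6.06 CPM, lie below the untreated ones at 12.2 to 40.1 CPM.

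The 4 treatment effects were then compared with each other. Between tumor and spleen PMN-MDSC, the treatment effect differed for 1 of 9 tested members, against 3.5% of all genes tested. That member was Tlr9, whose log2 effect was 2.73 ± 0.62 (SE, edgeR adjusted p = 0.0248) higher in the tumor. The adjusted p of that difference was 0.0584 and 0.0581 without treated tumor libraries 1 and 2, 0.0529 and 0.0507 without untreated tumor libraries 3 and 4, and 0.0659 and 0.0733 without treated spleen libraries 2 and 3. Between M-MDSC and PMN-MDSC of the spleen, 1 of 9 tested members differed, against 10.9% of all genes. It was again Tlr9, with a log2 effect 2.77 ± 0.58 (SE, edgeR adjusted p = 0.0103) higher in M-MDSC, and the adjusted p was at most 0.0255 when single libraries were left out. Both comparisons use the same spleen PMN-MDSC libraries, in which the macrophage and erythroid markers fell as well.

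No member differed in the remaining pair of tests. Between tumor and spleen M-MDSC, edgeR called 0 of 10 members, against 0.79% of all genes. An unadjusted p under 0.05 (edgeR) was found for 4 members and for 1238 of all 8730 genes tested. DESeq2 called 3 members, and its share of all genes is not given. The largest difference was that of Tlr5, -2.22 ± 0.53 on the log2 scale (SE, edgeR adjusted p = 0.0636). The difference of Tlr8 was 1.70 ± 0.44 (SE, edgeR adjusted p = 0.0946). Between M-MDSC and PMN-MDSC of the tumor, edgeR called 0 of 10, against 0.0239% of all genes, and DESeq2 called 0. An unadjusted p under 0.05 (edgeR) was found there for 4 members and for 720 of all 8385 genes tested.

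The second question was how tumor MDSC differed from spleen MDSC. In untreated PMN-MDSC, 6 of the 9 members tested differed, against 59.1% of all genes. Tlr1 (log2 difference 2.32 ± 0.43), Tlr2 (1.49 ± 0.27), Tlr9 (1.41 ± 0.36) and Tlr8 (0.74 ± 0.29) were higher in the tumor, and Tlr6 (-1.67 ± 0.25) and Tlr13 (-1.4 ± 0.25) were lower (SE, edgeR adjusted p = 0.000269 to 0.0443). Tlr1, for example, held 34.4, 43.1, 54.8 and 56.9 CPM in the tumor and 3.22 to 19.9 CPM in the spleen, while Tlr6 held 11.7 to 21 CPM in the tumor and 37.5, 54.3, 66.3 and 72.6 CPM in the spleen. Tlr1 and its neighbour Tlr6 thus moved in opposite directions. The call of Tlr8, whose ranges overlapped, was lost without spleen library 1, 2 or 4 or tumor library 1, 2 or 3, with adjusted p up to 0.123. In the same comparison all 10 neutrophil markers were lower and 7 of 8 macrophage markers higher in the tumor, and their part in these differences was not tested.

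In treated PMN-MDSC, 6 of 10 members differed, against 53.6% of all genes. Tlr9 had the largest difference, 4.16 ± 0.46 (SE, edgeR adjusted p = 0.00024), with 43.7, 62.0, 97.5 and 119 CPM in the tumor and 4.14 to 6.06 CPM in the spleen. Tlr3 differed by 3.70 ± 0.69 (SE, edgeR adjusted p = 0.00247), from 0, 1 and 6 counts in the spleen libraries to 20 to 83 counts in the tumor libraries, and without tumor library 1 or 2 its mean fell under the filter on low counts, which left it untested. Tlr8 (0.97 ± 0.22) and Tlr2 (0.75 ± 0.24) were also higher, and Tlr5 (-1.48 ± 0.48) and Tlr13 (-1.11 ± 0.41) lower in the tumor (SE, edgeR adjusted p = 0.00637 to 0.0461). The ranges of Tlr5 and Tlr13 overlapped, and both calls were lost under upper-quartile scaling and with library totals (adjusted p up to 0.111 and 0.14). That of Tlr5 was also lost without spleen library 1 or 2 or any 1 of the tumor libraries (adjusted p up to 0.137), and that of Tlr13 without spleen library 2 or 3 or tumor library 1, 2 or 3 (adjusted p up to 0.146). The call of Tlr2 was lost without treated spleen library 1 or 3 (adjusted p = 0.0865 and 0.0914) and without the filter on low counts (0.062). In the same comparison 9 of 10 neutrophil markers were lower, and all 8 macrophage and 7 of 8 monocyte markers higher in the tumor, and their part was not tested.

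In untreated M-MDSC, 4 of 9 tested members differed, against 28.4% of all genes, and 3 surface receptors led. Tlr2 held 47.6, 50.1, 55.1 and 58.1 CPM in the spleen and 318, 349.8, 489 and 493 CPM in the tumor, a log2 difference of 2.98 ± 0.17 (SE, edgeR adjusted p = 2.22e-07). Tlr4 held 21.3, 23.2, 27.1 and 32.6 CPM in the spleen and 86.8, 109.5, 111 and 156 CPM in the tumor, a difference of 2.17 ± 0.20 (SE, edgeR adjusted p = 8.16e-06). Tlr5 was higher in the tumor by 2.07 ± 0.24 (SE, edgeR adjusted p = 5.58e-05). Tlr7 was lower in the tumor, 46.3 to 59.1 CPM against 118, 139, 159 and 163 CPM, a log2 difference of -1.48 ± 0.15 (SE, edgeR adjusted p = 2.03e-05). None of these 4 pairs of ranges overlapped. With library totals, Tlr6, Tlr9 and Tlr13 were also called lower in the tumor (edgeR adjusted p = 0.0458, 0.0123 and 0.00735). Under upper-quartile scaling, Tlr9 and Tlr13 were (0.0314 and 0.0306), and without the filter on low counts Tlr6 was (0.0395). Tlr8 was called higher without tumor library 4 (0.0304). In the same comparison 7 of the 8 macrophage, 3 of 8 monocyte and all 3 tested epithelial markers were higher in tumor M-MDSC. Of 7 tested neutrophil markers, 5 were lower and 1 higher, the neutrophil markers summed to 2676 to 6149 CPM in the spleen and 229 to 670 CPM in the tumor without overlap, and the part of these cells was not tested.

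In treated M-MDSC, 3 of 10 members differed, against 5.87% of all genes. Tlr2 (2.0 ± 0.24, adjusted p = 0.00311), Tlr8 (1.93 ± 0.40, adjusted p = 0.0297) and Tlr4 (1.5 ± 0.33, adjusted p = 0.0383; SE, edgeR) were higher in the tumor and did not overlap. Tlr5 did not pass the test (-0.17 ± 0.48; SE, edgeR adjusted p = 0.864), with 4.81 to 13.8 CPM in the tumor and 5.68 to 13.6 CPM in the spleen. The call of Tlr4 was lost with library totals (adjusted p = 0.0526), without any 1 of the tumor libraries and without spleen library 1, 3 or 4 (up to 0.124), and that of Tlr8 without spleen library 1, 2 or 3 or tumor library 2 or 3 (up to 0.101). Of the 8 macrophage markers, 7 were also higher in treated tumor M-MDSC, and their part was not tested.

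**Figure D5:**
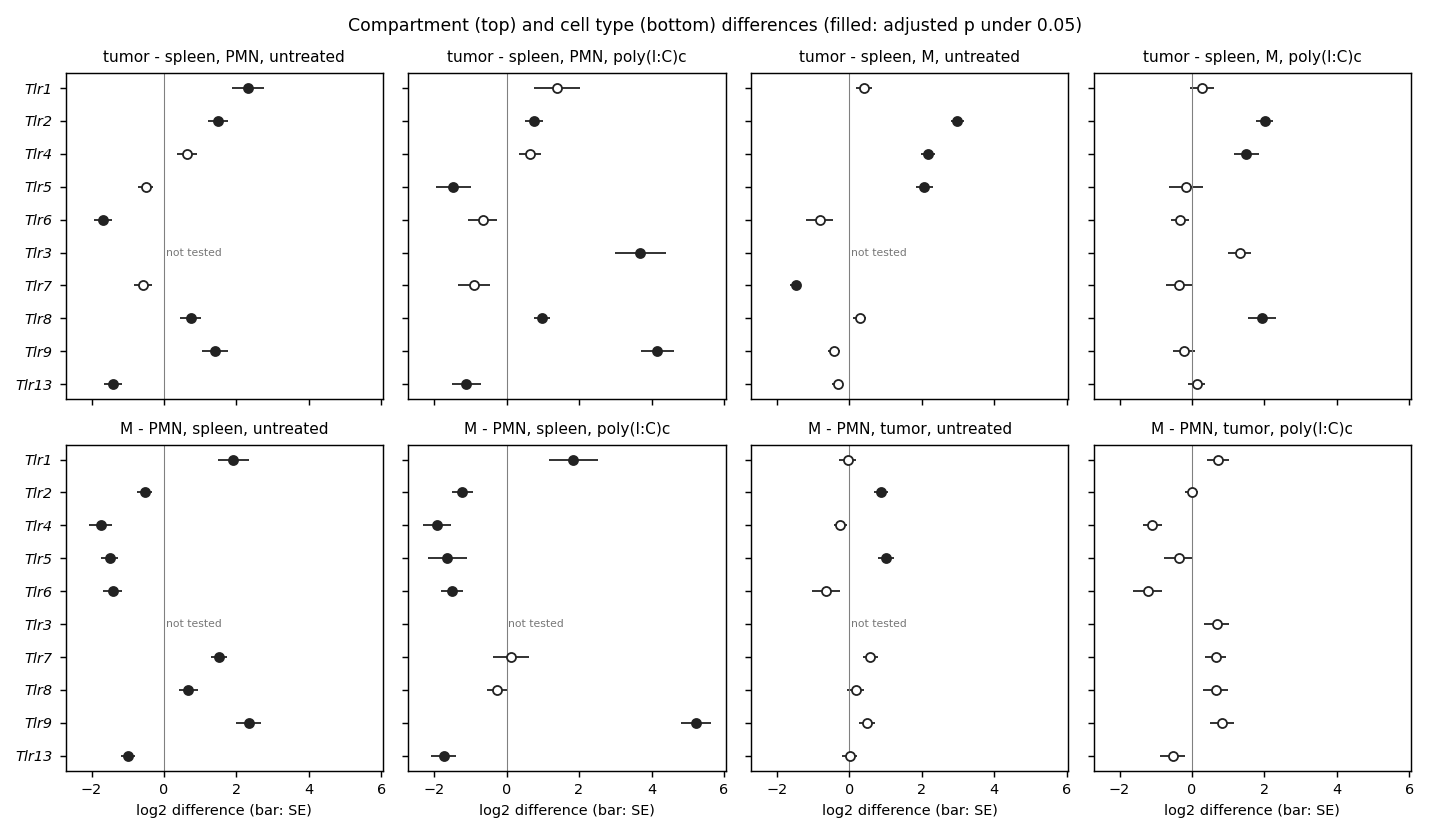
Log2 difference (horizontal, bars for the standard error) of each member (vertical) between tumor and spleen (upper row) and between M-MDSC and PMN-MDSC (lower row), untreated and after poly(I:C)c. Filled circles had an adjusted p under 0.05: 9 of 9 tested members between the cell types of the untreated spleen, and none between those of the treated tumor.

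The third question was how M-MDSC differed from PMN-MDSC. In the untreated spleen, all 9 members tested differed, against 64.4% of all genes. Tlr9 (2.34 ± 0.34), Tlr1 (1.91 ± 0.43), Tlr7 (1.52 ± 0.23) and Tlr8 (0.67 ± 0.25) were higher in M-MDSC. Tlr4 (-1.75 ± 0.32), Tlr5 (-1.50 ± 0.23), Tlr6 (-1.41 ± 0.26), Tlr13 (-0.99 ± 0.19) and Tlr2 (-0.53 ± 0.20) were lower (log2 difference ± SE, edgeR adjusted p for the 9 members = 0.000298 to 0.0405). Tlr9, for instance, held 87.2 to 113 CPM in M-MDSC and 12.2 to 40.1 CPM in PMN-MDSC, and none of the 9 pairs of ranges overlapped. The call of Tlr2 was lost under upper-quartile scaling (adjusted p = 0.255), with library totals (0.513), without any 1 of the M-MDSC libraries and without PMN-MDSC library 2 or 4 (up to 0.138). That of Tlr8 was lost with 1 fit over the 8 MDSC groups (0.0561), without PMN-MDSC library 1 and without M-MDSC library 1 or 2 (up to 0.0948). All 10 neutrophil and 6 of 8 macrophage markers were lower and 7 of 8 monocyte markers higher in M-MDSC there, and their part was not tested.

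In the treated spleen, 7 of 9 tested members differed, against 61.2% of all genes. Tlr9 was higher in M-MDSC by 5.24 ± 0.41 (SE, edgeR adjusted p = 7.83e-05), with 96.5 to 236 CPM against 4.14 to 6.06 CPM. Tlr1 (1.84 ± 0.67) was also higher, and Tlr4 (-1.92 ± 0.39), Tlr13 (-1.73 ± 0.35), Tlr5 (-1.64 ± 0.54), Tlr6 (-1.51 ± 0.30) and Tlr2 (-1.23 ± 0.29) were lower (SE, edgeR adjusted p = 0.00269 to 0.043). Tlr7 and Tlr8 did not pass the test, with log2 differences of 0.12 and -0.26, and Tlr5 was the only called member whose ranges overlapped. The calls of Tlr5 and Tlr2 were lost with library totals (adjusted p = 0.118 and 0.0618). That of Tlr5 was also lost under upper-quartile scaling (0.0669), without PMN-MDSC library 1 or 2 and without M-MDSC library 3 or 4 (up to 0.132), and that of Tlr1 without the filter on low counts (0.192), without PMN-MDSC library 1 or 2 and without M-MDSC library 1, 2 or 3 (up to 0.104). All 10 neutrophil markers were lower, and 7 of 8 monocyte and 5 of 7 tested macrophage markers higher in M-MDSC of the treated spleen, and their part was not tested.

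In the untreated tumor, 2 of 9 tested members differed, against 13% of all genes. Tlr2 (0.87 ± 0.20; SE, edgeR adjusted p = 0.0134) and Tlr5 (1.02 ± 0.22; SE, edgeR adjusted p = 0.00825) were higher in M-MDSC, and neither overlapped. The call of Tlr2 was lost without untreated PMN-MDSC library 4 (adjusted p = 0.0542), and with 1 fit over the 8 MDSC groups that of Tlr5 was lost (adjusted p = 0.0714). In the treated tumor, edgeR called 0 of 10 members, against 0.38% of all genes. An unadjusted p under 0.05 (edgeR) was found for 4 members and for 1153 of all 8955 genes tested. DESeq2 called 1 member, and its share of all genes is not given. Tlr4 held 79.0, 81.1 and 98.1 CPM in M-MDSC and 130.3, 149, 203 and 258 CPM in PMN-MDSC there, a log2 difference of -1.10 ± 0.27 (SE, edgeR adjusted p = 0.194). In the untreated tumor, the macrophage marker sums of all PMN-MDSC libraries (10377 to 13332 CPM) lay above those of M-MDSC (3428 to 8041 CPM), and their part in these differences was not tested.

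Bulk tumor of untreated mice was compared with the cells sorted from such tumors. Against tumor PMN-MDSC, 7 of 8 tested members differed, against 69.5% of all genes, and against tumor M-MDSC 9 of 9 tested members differed, against 69.2%. Every called member except Tlr3 was lower in bulk tumor, with log2 differences from -2.34 (Tlr4 against M-MDSC) to -6.86 (Tlr2 against M-MDSC). Tlr3 held 8.83, 12.6, 16.7 and 25.6 CPM in bulk tumor, above the 2.55 to 5.24 CPM of tumor M-MDSC, a log2 difference of 1.84 ± 0.42 (SE, edgeR adjusted p = 0.00201). Against tumor PMN-MDSC, at 2.87 to 16.6 CPM, Tlr3 overlapped and did not pass the test (0.63 ± 0.48; SE, edgeR adjusted p = 0.259). Without the filter on low counts Tlr3 was called higher in bulk tumor there (0.89, edgeR adjusted p = 0.0142). Tlr4 was the only other member above 10 CPM in a bulk library, with 18.6, 20.1, 31.2 and 31.5 CPM. Tlr5 had 2 to 6 counts and Tlr6 3 to 13 counts per bulk library. The 5 tumor epithelial markers summed to 4405 to 6511 CPM in bulk tumor and to 98.0 to 319.6 CPM in untreated tumor M-MDSC, and the part of epithelial and stromal cells in the Tlr3 level was not tested.

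The order of the groups differed between members. Tlr9 was highest in treated spleen M-MDSC (169.0 ± 63.8 CPM; SD, n = 4) and lowest among MDSC in treated spleen PMN-MDSC (4.85 ± 1.05 CPM; SD, n = 3), and neighbours among the lowest 3 MDSC groups did not overlap. Tlr13 was highest in treated spleen PMN-MDSC (898 ± 401 CPM; SD, n = 3), and its range overlapped that of the next group, untreated spleen PMN-MDSC (421 ± 128 CPM; SD, n = 4). Tlr2 was highest in untreated tumor M-MDSC (412 ± 91.7 CPM; SD, n = 4), above the range of the next group, treated tumor PMN-MDSC (254 ± 36.4 CPM; SD, n = 4). Tlr6 was highest in the spleen PMN-MDSC groups (59.9 and 57.7 CPM, which overlapped). Tlr3 was highest in treated tumor M-MDSC (27.2 ± 8.45 CPM; SD, n = 3), and overlapped with treated tumor PMN-MDSC (16.9 ± 5.51 CPM; SD, n = 4). The remaining 2 members of the family in mice, Tlr11 and Tlr12, are receptors for profilin of parasites. Tlr11 had a group mean of at most 6.33 CPM, and Tlr12 was higher in tumor than in spleen PMN-MDSC (untreated log2 difference 4.38 ± 0.61; SE, edgeR adjusted p = 0.000173).

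The other genes of the pathway were counted by list, to be read beside the 11.6% (spleen PMN-MDSC), 3.36% (tumor PMN-MDSC), 19.6% (spleen M-MDSC) and 2.88% (tumor M-MDSC) of all genes tested that treatment called. Among 12 genes for trafficking and processing of endosomal receptors, such as Unc93b1, the chaperone of the endosomal receptors, and the cathepsins that cleave them, poly(I:C)c gave 4 higher and 0 lower in spleen M-MDSC, 1 higher and 2 lower in spleen PMN-MDSC, 1 higher and 0 lower in tumor M-MDSC, and 0 in tumor PMN-MDSC. Ctsb, a cathepsin, rose in spleen M-MDSC (1.16 ± 0.18, adjusted p = 0.00202) and tumor M-MDSC (1.34 ± 0.24, adjusted p = 0.0254), and Dnase2a, which digests DNA in lysosomes, rose in spleen M-MDSC (0.80 ± 0.14, adjusted p = 0.00376) but fell in spleen PMN-MDSC (-1.85 ± 0.49, adjusted p = 0.0453; log2 fold change ± SE, edgeR). Among 9 co-receptor genes, Cd14, the lipopolysaccharide co-receptor, rose (1.91 ± 0.46) and Ly86, the partner of CD180, fell (-2.60 ± 0.64) in spleen PMN-MDSC, Ly86 and Clec7a fell in spleen M-MDSC, Cd180 rose in tumor M-MDSC (1.74 ± 0.31; SE, edgeR adjusted p = 0.0254), and 0 of 7 tested changed in tumor PMN-MDSC.

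Of the 20 adaptors and kinases, 1 of 19 tested was called in spleen PMN-MDSC, against 11.6% of all genes, and 3 of 20 in spleen M-MDSC, against 19.6%. Ikbke, a kinase that activates IRF3, rose in spleen PMN-MDSC (2.75 ± 0.42, adjusted p = 0.00651) and, with Pik3ap1 and Tbk1, in spleen M-MDSC (1.69 ± 0.17, adjusted p = 0.000201; SE, edgeR), Pik3ap1 was the only one of 20 called in tumor M-MDSC, against 2.88%, and 0 of 20 were called in tumor PMN-MDSC, against 3.36%. Among the 15 negative regulators, 5 of 12 tested rose in spleen PMN-MDSC (11.6% of all genes called), 8 of 12 in spleen M-MDSC (19.6%), 2 of 12 in tumor PMN-MDSC (3.36%) and 0 of 12 in tumor M-MDSC (2.88%), and none was called lower. Usp18, which restrains interferon receptor signaling and is also on the list used to check the treatment labels, had the smallest adjusted p in the 3 with a call. Among 13 transcription factors, 1 rose and 4 fell in spleen PMN-MDSC, 1 rose and 1 fell of 12 tested in spleen M-MDSC, and 1 rose and 0 fell in each tumor population. The gene that rose was Irf7 in all 4 populations, by 2.75 ± 0.31, 3.88 ± 0.26, 2.95 ± 0.24 and 3.01 ± 0.28 on the log2 scale (spleen PMN-MDSC, tumor PMN-MDSC, spleen M-MDSC and tumor M-MDSC, SE), and it too is on the label check list. Those that fell in spleen PMN-MDSC were Atf3, Fosb, Fos and Irf8, of which Fos and Irf8 were named after their values were seen. All 8 macrophage and 5 of 8 monocyte markers fell in the same comparison, while 1 monocyte and 5 of 10 neutrophil markers rose. Their part in the falls of these genes and of Ly86 and Dnase2a was not tested. Atf3 fell in both spleen populations (-2.84 ± 0.45 in PMN-MDSC and -1.44 ± 0.33 in M-MDSC; SE, edgeR adjusted p = 0.00756 and 0.0152).

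Among 15 cytokine targets, 5 of 6 tested rose in spleen M-MDSC, against 19.6% of all genes called, led by Ccl5 (5.76 ± 0.42), Cxcl10 (4.36 ± 0.48) and Ccl4 (5.56 ± 0.78; SE, edgeR adjusted p = 4.06e-05 to 0.00148). In spleen PMN-MDSC 2 rose and 1 fell of 6 tested, against 11.6%. In the tumor, 1 rose and 3 fell of 11 tested in PMN-MDSC, against 3.36%, and 1 rose and 2 fell of 13 tested in M-MDSC, against 2.88%. Ccl5 rose in PMN-MDSC (4.85 ± 0.37) and M-MDSC (5.59 ± 0.78), while Ptgs2, the inducible cyclooxygenase, fell in both (-1.30 ± 0.31 and -2.10 ± 0.38) and Il1b fell in M-MDSC (-2.15 ± 0.30; SE, edgeR adjusted p = 0.000137 to 0.0461). Between tumor and spleen, the cytokine list was higher in the tumor, in 11 of 11 tested genes in untreated PMN-MDSC (59.1% of all genes called) and 10 of 10 in untreated M-MDSC (28.4%), and Cd14 was higher in both as well (3.72 ± 0.31 and 6.07 ± 0.33; SE, edgeR adjusted p = 9.39e-06 and 1.76e-07). The medians of the cytokine list were 6.22 and 8.70 on the log2 scale, beside 0.01 and 0.02 over all genes tested. In both comparisons most macrophage markers were higher and most tested neutrophil markers lower in the tumor, as given above, and their part was not tested.

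The genes most like each member were sought by Pearson correlation of mean log2(CPM + 1) over the 8 MDSC groups among 8532 genes. Here, unlike elsewhere, CPM came from library totals without TMM scaling. These correlations rest on 8 group means that share cell type, organ and treatment, and are given as a description. Tlr9 had the closest neighbours, Evl (r = 0.997), Ddhd1 (0.997) and Mapk9 (0.997), followed by Tlr1 with Atp6v1h (0.994), Ahsa1 (0.988) and Washc5 (0.988). Tlr7 was most like Nabp2 (0.985), Srd5a3 (0.979) and Rab29 (0.970), Tlr4 like Ptp4a1 (0.980), Zfp36l1 (0.975) and Lilr4b (0.967), and Tlr6 like Nbr1 (0.974), Arhgef3 (0.970) and Gsk3a (0.968). Tlr3 was most like Ctsb (0.972), Lair1 (0.972) and Atp6v1c1 (0.968), Tlr2 like Ifrd1 (0.971), Noct (0.966) and Gm17024 (0.964), and Tlr13 like Rtp4 (0.971), Prkaa1 (0.964) and Glrx (0.959). Tlr8 (Gm10925, 0.965, Dynlt3, 0.950, and Eid1, 0.944) and Tlr5 (Tpm4, 0.953, Lrrfip1, 0.905, and Camk2g, 0.865) had the weakest. No member was among the 3 closest genes of another member.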

How the data were processed

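The authors mapped reads to mouse genome mm10 (GRCm38) with ContextMap and BWA, and deposited raw fragment counts per gene, made in a strand-specific manner with featureCounts (Subread 1.4.6-p3 in the processing notes) and Gencode annotation. Libraries were amplified by PCR without molecular identifiers, so limits from counts cover counting error only. Columns were assigned to groups by name. From the counts, CPM and FPKM were scaled by TMM factors over 34 libraries, except in the search for correlated genes, which used CPM from library totals. Tests used edgeR 4.0.16 (glmQLFit with robust estimation and glmQLFTest, R 4.3.3, limma 3.58.1) within the groups compared, on genes whose mean reached 25 counts, called at an adjusted p under 0.05. The pipeline was tested on simulated data. Alternatives were DESeq2 1.42.0, RLE and upper-quartile scaling, no filter, 1 fit over the 8 MDSC groups, an adjusted p under 0.001 with at least 2-fold change, leaving out each library and, chosen after seeing the data, library totals without TMM. Of 48 pairs of libraries within groups, 0 were identical. The members, gene lists and tests were chosen with earlier results of these data known. All members were tested where the filter allowed and were named in the treatment comparisons, while the other comparisons name mainly the called members. Up to 3 called genes per pathway list and comparison were named (smallest adjusted p), with Fos and Irf8 in addition, and the 3 genes most correlated with each member. Gene positions and transcripts came from a later GENCODE release of the same build and promoters from RefSeq. One further allele of the tumor line is not reported here.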

Additional observations from a re-analysis of the deposited data

Results flagged for a closer look

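In 70 member and group sets of 4 libraries, 2 had a library far from the other 3 by Dixon's criterion, where chance gives about 1 in 20. In treated spleen M-MDSC, 1 library held 332 CPM of Tlr13, and the other 3 held 208, 212 and 213 CPM. In untreated tumor M-MDSC, 1 library held 49.8 CPM of Tlr8, and the other 3 held 80.0, 81.5 and 84.0 CPM. The treatment effect on Tlr9 differed between tumor and spleen PMN-MDSC, with a log2 difference of 2.73 (edgeR interaction test, adjusted p = 0.0248), and between M-MDSC and PMN-MDSC of the spleen, with one of 2.77 (adjusted p = 0.0103). The spleen PMN-MDSC libraries enter both differences.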

How the results depend on the processing

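Of 168 tested values of members, 63 were called, and none of these changed sign under any alternative. Counts of called members moved by over 1.5 times in these cases, and the cause was not tested unless fewer libraries or a stricter rule give it. The shares of all genes called under these alternatives are not given, so these counts cannot be read as results about the members. With DESeq2, treated against untreated gave 4 called members in spleen PMN-MDSC, 4 in tumor PMN-MDSC and 6 in tumor M-MDSC, the cell types of the treated tumor gave 1, and the compartment difference of the effect in M-MDSC gave 3. Without the filter on low counts these were 4 (spleen PMN-MDSC), 6 (tumor M-MDSC), 3 (cell types of the treated tumor) and 3 (effect in M-MDSC), and the cell type difference of the effect in the spleen gave 3. One fit over the 8 MDSC groups gave 4 in spleen PMN-MDSC, 1 in spleen M-MDSC, 1 between the cell types of the untreated tumor, 1 between those of the treated tumor and 2 for the effect in M-MDSC. With library totals, treatment in tumor M-MDSC gave 5 and compartment in untreated M-MDSC gave 7. The rule of an adjusted p under 0.001 with at least a 2-fold change gave 0 in all 4 treatment comparisons, in both tests that Tlr9 had passed between effects, in treated M-MDSC between compartments and in the untreated tumor between cell types, 3 and 1 in PMN-MDSC between compartments (untreated and treated) and 3 and 1 between cell types of the spleen. Leaving out single libraries gave 0 to 3 called members for treatment in spleen PMN-MDSC, 0 to 2 in tumor PMN-MDSC and 1 to 4 in tumor M-MDSC, 3 to 5 and 1 to 3 between compartments of treated PMN-MDSC and M-MDSC, 1 to 3 between cell types of the untreated tumor, and for the differences of effects 0 to 1 (PMN-MDSC), 0 to 2 (M-MDSC), 1 to 3 (spleen) and 0 to 1 (tumor). Upper-quartile scaling moved the median log2 difference of all genes from 0.01 to -0.16 for treatment in spleen PMN-MDSC, from 0.04 to 0.28 for the compartments of treated PMN-MDSC and from 0.11 to 0.44 for the cell types of the treated spleen, and library totals moved them to -0.30, 0.48 and 0.69. Counts of Tlr9 in treated spleen PMN-MDSC (5 to 12 per library), of Tlr3 in untreated tumor M-MDSC (2 to 20) and of Tlr3 in all spleen libraries limit what these depths can show. No paired analysis was possible because the column names hold none of the numbers of the sample titles, and columns were not matched to samples by their order.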
